A study of Mus musculus with 12 samples.

Results

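The genes described here are 10 genes that brain endothelial cells express, namely Vwf, Cldn5, Pecam1, Flt1, Kdr, Tek, Cdh5, Slc2a1, Abcb1a and Ly6c1. They were read from a table of 33864 loci as the loci whose gene name holds one of these symbols. Each symbol occurred at 1 locus, so the 10 members are 10 loci. Vwf was chosen by its measured FPKM, because it was higher in ErbB2V664E mutants than in their controls in these same data, and the other 9 were chosen as vessel genes to be set beside it. The values of Vwf in that contrast are therefore given as a description, with no test.

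RNA was measured in subcortical white matter of 12 mice, with 1 library per mouse and 4 groups of 3. ErbB2V664E mutants carried Sox10-tTA and TRE-ErbB2V664E, and their littermate controls carried TRE-ErbB2V664E alone. Both groups received doxycycline over postnatal days 21 to 30 and were aged 30 days. The dnEGFR mutants carried Sox10-tTA and TRE-dnEGFR, and their littermate controls carried TRE-dnEGFR alone. Both of these groups received doxycycline over postnatal days 21 to 35 and were aged 35 days. ErbB2V664E is an activated form of the receptor ErbB2, and dnEGFR is a dominant-negative form of the receptor EGFR. The tTA transactivator drives genes placed behind a TRE promoter, and Sox10, whose promoter directs it here, is a gene of the oligodendrocyte lineage and not of the endothelium. All 12 mice carried a TRE transgene and received doxycycline. None carried the transactivator alone. The sources used here do not state whether doxycycline was given to start or to stop transgene expression.

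Endothelial cells line the vessels, and in the brain they form the blood-brain barrier through tight junctions, few vesicles and a set of polarised transporters. Von Willebrand factor, the product of Vwf, is a large secreted glycoprotein that binds platelets to injured vessel walls. It is stored in Weibel-Palade bodies of endothelial cells and is also made by megakaryocytes. In the brain it is found unevenly along the vascular tree, with more in larger vessels and veins than in capillaries.

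Levels are given as FPKM, the number of fragments per transcript length and sequencing depth, so that genes of different length can be compared. The 12 libraries held an estimated 16596889 to 24739630 fragments, so that 1 FPKM in a transcript of 2 kb stood for 33.2 to 49.5 fragments. The table held 10 of 10 members at 1 FPKM or more in at least 3 libraries, the limit for entering the tests. Vwf reached 1 FPKM in 4 libraries, 3 of them ErbB2V664E mutants. The Erbb2 locus stood at 0.833 to 0.894 FPKM in ErbB2V664E mutants and 0.772 to 0.97 FPKM in ErbB2V664E controls. The Egfr locus stood at 2.77 to 3.08 FPKM in dnEGFR mutants and 2.64 to 3.32 FPKM in dnEGFR controls. These levels do not check the genotypes, since the sources used here do not name the species of the transgenes.

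Vwf was higher in every ErbB2V664E mutant than in any other library. It stood at 1.87, 3.16 and 3.71 FPKM in ErbB2V664E mutants, against 0.862, 0.963 and 1.07 FPKM in ErbB2V664E controls. The mean was 2.91 ± 0.947 FPKM in the mutants and 0.964 ± 0.102 FPKM in the controls (SD, n = 3 each), a ratio of means of 3.02. The groups did not overlap, as at 9.28% of all loci tested for mutants above controls, and mutant 1 stood closer to the controls than mutants 2 and 3 did. Within litters the ratio of mutant over control ranged over 2.17 to 3.48. On the scale of log2(FPKM + 1) the difference was 0.97 with a standard error of 0.16, and no p is given because Vwf was chosen for it. Whether Vwf was among the loci called in this line changed with the processing.

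The Vwf locus lies on mouse chromosome 6 (GRCm38, chr6:125546774-125686679, plus strand, GENCODE M21). It sums 10 annotated transcripts, of which 3 are protein-coding, the longest with 8834 bases, and 7 are of other types with 334 to 4453 bases. Per-transcript values were not analysed here, so which of them carried the difference is not known. If every fragment had come from the longest coding transcript, the locus would have held 106 to 715 fragments in a library.

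Among dnEGFR libraries Vwf stood at 0.78, 0.701 and 0.7 FPKM in mutants, against 0.652, 0.657 and 0.64 FPKM in controls. All 3 mutants lay above all 3 controls, by a ratio of means of 1.12. The log2 difference was 0.07. No test of Vwf is given in this line either, because Vwf entered the tests through the ErbB2V664E mutants and their spread enters its standard error. Tests of the other members were made with limma and Benjamini-Hochberg adjustment over 13803 loci. Mutants lay above controls without overlap at 5.58% of all loci tested in this line. The difference in log2 change between the lines was 0.90 for Vwf, given as a description for the same reason as above.

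**Figure D1:**
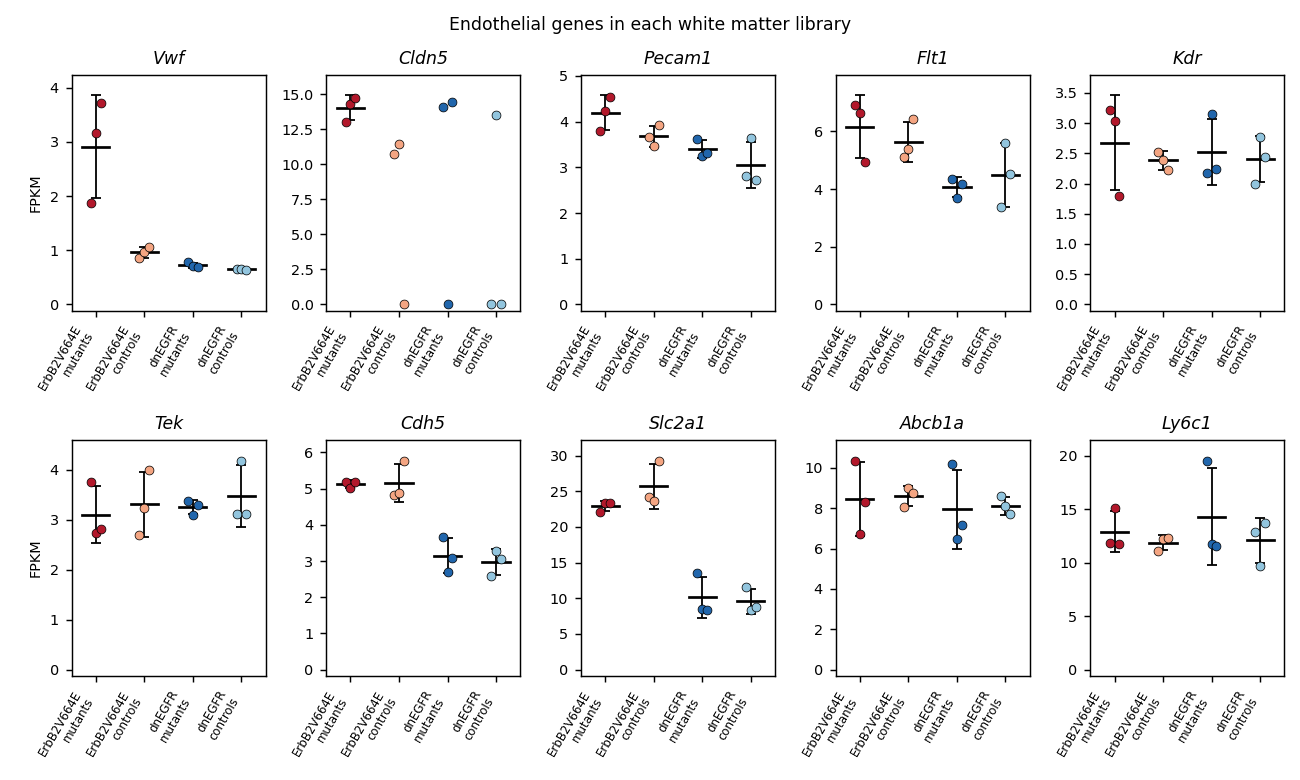
FPKM of the 10 genes (1 panel each, own axis from 0) in each library of the 4 groups. Points are libraries, horizontal lines are group means and vertical bars are SD (n = 3). Groups with a library listed at 0 have no mean. Vwf is above 1.8 FPKM in the 3 ErbB2V664E mutants and at most 1.07 FPKM in the other 9 libraries, whereas Slc2a1 and Cdh5 separate by line.

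Of the junction and adhesion genes, Cdh5 and Pecam1 did not pass the test in the ErbB2V664E line. Cdh5, which encodes VE-cadherin of the adherens junction, stood at 5.19, 5.01 and 5.2 FPKM in ErbB2V664E mutants, against 4.84, 4.89 and 5.77 FPKM in ErbB2V664E controls. Its groups overlapped, and the log2 difference of −0.00 had a 95% interval of −0.24 to 0.23. Pecam1, which encodes the adhesion molecule CD31 of endothelial cell contacts, stood at 3.78, 4.24 and 4.54 FPKM in the mutants, against 3.66, 3.47 and 3.93 FPKM in the controls. The mutant was the higher of each of the 3 litter pairs, by 1.03 to 1.22 times, but the groups overlapped. The log2 difference of Pecam1 was 0.15 (SE 0.10, limma adjusted p = 0.61). Both genes overlapped between groups in the dnEGFR line, with log2 differences of 0.06 for Cdh5 and 0.12 for Pecam1 (limma adjusted p = 1.0 and 0.987).

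Cldn5 encodes claudin-5, the main claudin of blood-brain barrier tight junctions. It was listed at 0 in 4 libraries and at 10.8 to 14.8 FPKM in the other 8. In ErbB2V664E mutants it stood at 13.0, 14.3 and 14.8 FPKM, against 10.8, 11.4 and a listed 0 in ErbB2V664E controls. In dnEGFR mutants it stood at 14.1, a listed 0 and 14.5 FPKM, against a listed 0, 13.5 FPKM and a listed 0 in dnEGFR controls. The locus has 1 transcript of 1416 bases, and its values above 0 stood for 306 to 456 fragments. A listed 0 at such a level also occurred elsewhere in the table. Of 3802 loci that reached 10 FPKM in some library, 185, or 4.9%, were listed at 0 in at least 1 other library. Among these, 79, Cldn5 included, were at 10 FPKM or more in every library not listed at 0. No fold change of Cldn5 is given, and the counts below are stated with and without it. In the 2 ErbB2V664E litters with both values above 0, the mutant was 1.21 and 1.25 times the control.

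The 3 receptor genes did not pass the test in either line. Flt1 encodes VEGFR1, which binds VEGF-A with high affinity and signals weakly. It stood at 6.93, 6.64 and 4.93 FPKM in ErbB2V664E mutants, against 5.10, 5.4 and 6.43 FPKM in ErbB2V664E controls, and the groups overlapped. Kdr encodes VEGFR2, the main signalling receptor for VEGF-A, and stood at 3.22, 3.03 and 1.79 FPKM in the mutants, against 2.53, 2.39 and 2.23 FPKM in the controls. Mutant 3 was the lowest library of the 12 for Kdr, and mutant 1 was the highest. Tek encodes the angiopoietin receptor TIE2. It stood at 3.76, 2.73 and 2.82 FPKM in the mutants, against 2.71, 3.23 and 3.99 FPKM in the controls, again with overlap. The log2 differences were 0.10 for Flt1, 0.10 for Kdr and −0.07 for Tek, with limma adjusted p of 0.855, 0.869 and 0.895. The receptors differed in the dnEGFR line by −0.10 for Flt1, 0.04 for Kdr and −0.06 for Tek on the log2 scale, all with a limma adjusted p of 1.0.

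Of the transporter genes, Slc2a1 encodes the glucose transporter GLUT1, which carries glucose across the barrier and is also present in astrocytes. It stood at 22.1, 23.3 and 23.3 FPKM in ErbB2V664E mutants, against 24.2, 23.6 and 29.3 FPKM in ErbB2V664E controls. All 3 mutants lay below all 3 controls, as did 8.96% of the loci tested. The log2 difference of −0.15 (SE 0.18) did not pass the test (limma adjusted p = 0.791). Abcb1a encodes the efflux pump P-glycoprotein of the luminal membrane. It stood at 10.4, 6.73 and 8.3 FPKM in the mutants, against 8.05, 8.99 and 8.77 FPKM in the controls. Its mutant values spread on both sides of the controls, with a log2 difference of −0.04 (limma adjusted p = 0.964). Slc2a1 in the dnEGFR line stood at 13.5, 8.47 and 8.39 FPKM in mutants, against 11.6, 8.31 and 8.74 FPKM in controls. Abcb1a there stood at 10.2, 6.48 and 7.16 FPKM in mutants, against 8.59, 8.08 and 7.7 FPKM in controls. Litter 1 held the highest value of both genes within each dnEGFR group, and both genes overlapped between mutants and controls.

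Ly6c1 encodes a small GPI-anchored surface protein that is abundant on mouse brain endothelium. It stood at 11.9, 15.1 and 11.8 FPKM in ErbB2V664E mutants, against 11.1, 12.2 and 12.4 FPKM in ErbB2V664E controls. In the dnEGFR line it stood at 19.6, 11.8 and 11.6 FPKM in mutants, against 12.9, 9.71 and 13.7 FPKM in controls. Both pairs of groups overlapped, and dnEGFR mutant 1 was the highest of the 12 libraries. The log2 differences were 0.10 in the ErbB2V664E line and 0.20 in the dnEGFR line (limma adjusted p = 0.886 and 0.992).

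Ly6c1 has a close copy, Ly6c2, with which fragments can be exchanged in counting. The first 120 coding bases of each, from GENCODE M21 (GRCm38, chromosome 15), are shown because they bear on how far the Ly6c1 value is its own. Capitals mark the 6 bases that differ.
Ly6c1: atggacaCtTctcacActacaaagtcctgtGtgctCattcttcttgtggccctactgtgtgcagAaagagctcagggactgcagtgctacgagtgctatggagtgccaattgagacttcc
Ly6c2: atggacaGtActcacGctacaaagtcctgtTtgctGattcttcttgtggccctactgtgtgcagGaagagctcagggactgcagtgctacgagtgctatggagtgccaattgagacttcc
Over 393 aligned coding bases the genes were 90.6% identical, with an identical run of up to 188 bases. Ly6c2 was listed at 0.0936 to 0.399 FPKM, far below Ly6c1. Abcb1a and its copy Abcb1b were 88.1% identical over 3819 aligned coding bases, and Abcb1b was listed at 0.491 to 0.656 FPKM. The sources used here do not say how fragments shared by these pairs were assigned.

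Leaving aside Vwf, and Cldn5 because of its listed zeros, the highest ratio of means of a member in the ErbB2V664E line was 1.14, for Pecam1. None of the other 9 members was called at an adjusted p of 0.05, where 0.275% of all 13803 loci were called (38 loci). None reached an unadjusted p of 0.05 either, as 12.1% of all loci did. Leaving out Cldn5, the log2 differences of the other 8 ranged over −0.15 to 0.15 with a median of 0.05, 4 above 0 and 4 below 0. Their 95% intervals lay within −0.55 to 0.54. The median over all loci was 0.004, and 51.0% of loci lay above 0. With litter as a block the call rule took 7 loci in place of 38, and again none of the 9. Fewer endothelial cells and less RNA per cell cannot be told apart in tissue RNA, and the same holds for more of either.

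In the dnEGFR line 0 of the 9 members other than Vwf were called, against 0.0942% of all loci (13 loci), and 0 reached an unadjusted p of 0.05, against 5.69% of all loci. The log2 differences without Cldn5 ranged over −0.10 to 0.20. The test of the difference between the 2 lines, on the other 9 members, called 0, against 0.116% of all loci (16 loci), and 0 reached an unadjusted p of 0.05, against 9.01%. Without Cldn5 these differences between lines ranged over −0.21 for Slc2a1 to 0.20 for Flt1, with 95% intervals within −0.78 to 0.71. With 3 mice per group, these intervals leave room for changes that the tests did not call.

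The same Vwf values can be set against the other members within each library, as a description that adds no support. The log2(FPKM + 1) level of Vwf minus the mean level of the other 8 without Cldn5 was −1.47, −0.87 and −0.59 in ErbB2V664E mutants, against −1.92, −1.89 and −1.94 in ErbB2V664E controls. It was −1.96, −1.75 and −1.76 in dnEGFR mutants, against −1.81, −1.91 and −1.85 in dnEGFR controls. The mean level of those 8 genes was 2.91 ± 0.08 in ErbB2V664E mutants and 2.89 ± 0.09 in ErbB2V664E controls on the same scale (SD, n = 3 each). The difference in relative Vwf level was 0.94 in the ErbB2V664E line and 0.03 in the dnEGFR line. With Cldn5 kept in the mean it was 0.78 and −0.11.

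The order of the levels shows the same Vwf values by rank. In ErbB2V664E mutants Vwf, at a mean of 2.91 FPKM, ranked ninth of 10, between Tek at 3.10 and Kdr at 2.68 FPKM, and overlapped both. In ErbB2V664E controls it was the lowest member with all values above 0, below Kdr at 2.38 ± 0.151 FPKM without overlap. It was likewise the lowest in the dnEGFR mutants and the dnEGFR controls, below Kdr at 2.52 and 2.40 FPKM. Slc2a1 was the highest member in both ErbB2V664E groups, with no overlap with the next. In both dnEGFR groups Ly6c1 had the highest mean and overlapped Slc2a1.

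**Figure D2:**
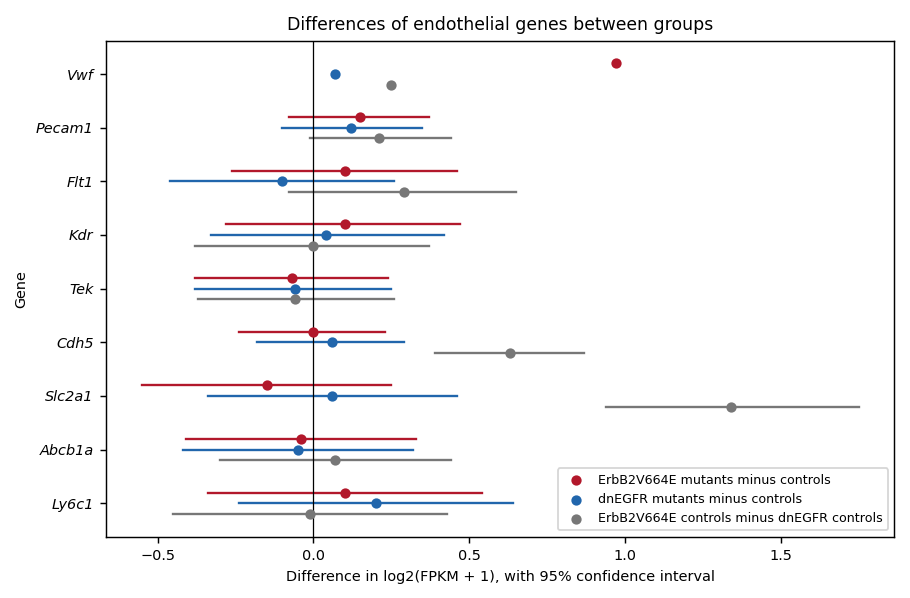
Differences in log2(FPKM + 1) of 9 genes for 3 comparisons (red, ErbB2V664E mutants minus controls; blue, dnEGFR mutants minus controls; grey, ErbB2V664E controls minus dnEGFR controls). Points are estimates and bars are 95% confidence intervals from limma. Vwf has no bars because it was chosen for the red difference and entered the tests through it, and Cldn5 is left out. The red and blue points of the other 8 genes lie between −0.15 and 0.20, whereas the grey points of Slc2a1 and Cdh5 lie at 1.34 and 0.63.

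Between the control groups of the 2 lines, Slc2a1 and Cdh5 differed. Slc2a1 was higher in ErbB2V664E controls, at 25.7 ± 3.11 FPKM, against 9.56 ± 1.81 FPKM in dnEGFR controls (SD, n = 3 each). Its log2 difference was 1.34 (SE 0.18, limma adjusted p = 0.000981), a ratio of means of 2.69. Cdh5 was higher as well, at 5.17 ± 0.526 FPKM in ErbB2V664E controls, against 2.98 ± 0.355 FPKM in dnEGFR controls, by 0.63 (SE 0.11, limma adjusted p = 0.0033). Both calls held under each alternative that gives this comparison, with Slc2a1 between 1.23 and 1.48 and Cdh5 between 0.54 and 0.78. Litter as a block and each line fitted alone do not give it. The mutant groups stood in the same places. Slc2a1 was at 22.9 ± 0.688 FPKM in ErbB2V664E mutants and 10.1 ± 2.92 FPKM in dnEGFR mutants, and Cdh5 at 5.13 ± 0.104 and 3.14 ± 0.482 FPKM.

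Each of the 3 ErbB2V664E controls lay above every dnEGFR control for Vwf, by a ratio of means of 1.48, as did Slc2a1 and Cdh5, and 21.6% of all loci did so. Its log2 difference was 0.25, given with no test as in the dnEGFR line. The remaining members did not pass the test, with log2 differences without Cldn5 between −0.06 for Tek and 0.29 for Flt1. Thus 2 of the 9 members other than Vwf were called, both higher, where 20.0% of all loci were called, 10.9% higher and 9.12% lower. This share is near the background. Line, age and length of doxycycline treatment differ together between these groups and cannot be told apart. The locus Gm28661 held 4.29 to 4.98% of the total FPKM in libraries of the ErbB2V664E line and was listed at 0 in the dnEGFR line. Of the 2761 loci called, 1502 were higher in ErbB2V664E controls. With every library set to the same total FPKM, 1112 of 3052 were.

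The promoters of Slc2a1 and Flt1 are shown to set the member with the largest called difference between lines beside a member that did not pass that test. They are the 250 bases before the RefSeq start (GRCm38.p6), at chr4:119108495-119108744 on the plus strand and chr5:147726012-147726261 on the minus strand. Capitals mark AGGAAG, a core recognised by ETS factors, and CCGCCC, a GC box, each searched on both strands. No matches overlap.
Slc2a1: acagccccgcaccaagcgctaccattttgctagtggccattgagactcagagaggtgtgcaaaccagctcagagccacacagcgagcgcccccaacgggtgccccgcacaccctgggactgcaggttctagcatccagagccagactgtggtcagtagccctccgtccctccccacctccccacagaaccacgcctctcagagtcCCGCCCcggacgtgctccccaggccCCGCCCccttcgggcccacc
Flt1: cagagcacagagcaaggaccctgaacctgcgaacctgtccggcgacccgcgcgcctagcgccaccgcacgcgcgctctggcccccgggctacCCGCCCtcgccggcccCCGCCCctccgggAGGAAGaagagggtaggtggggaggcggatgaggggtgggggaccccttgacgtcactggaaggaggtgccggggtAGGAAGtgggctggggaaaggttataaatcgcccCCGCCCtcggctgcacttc
Slc2a1 held 0 matches to AGGAAG and 2 to CCGCCC, and Flt1 held 2 and 3. Among 32851 RefSeq windows of 250 bases, 29.5% held AGGAAG and 32.7% held CCGCCC, so neither motif is rare. Windows were at hand for 7 of the 10 members, with 2 for Ly6c1. Of the others, Abcb1a and 1 of the Ly6c1 windows held AGGAAG, Kdr and Cldn5 held CCGCCC, and Tek held neither. The Abcb1a window, at chr5:8566841-8567090, ends well before the GENCODE M21 start of the gene, chr5:8660077 on the plus strand.

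To place the members among other vessel genes, 11 lists of vascular genes were read, covering junctions, receptors and ligands, transporters, transcription factors, Wnt signalling, haemostasis, arterial, venous and capillary markers, basement membrane and mural cells. They held 182 loci other than the members, of which 142 were tested. In tissue RNA these loci are not read from vessel cells alone, since some, such as Sparc, are also genes of glia. In the ErbB2V664E line 0 of the 142 were called higher and 1 lower, 0.704% of them, where 0.275% of all loci were called. The one called lower was Lamc1, the laminin gamma 1 chain of basement membranes. It stood at 4.62 ± 0.588 FPKM in mutants and 9.57 ± 1.29 FPKM in controls (SD, n = 3 each). Its log2 difference was −0.91 (SE 0.11, limma adjusted p = 0.0109), and the call was lost with litter as a block, with each line fitted alone and without mutant 2. The 142 loci had a median log2 difference of −0.07, with 40.8% above 0, against 0.004 and 51.0% over all loci.

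Vwf, at 0.97, had the second largest positive difference among these vascular loci, a rank that its choice for this difference favours. The one above it, chosen here after its values were seen, was F2r, the thrombin receptor PAR1. It stood at 2.34, 2.20 and 2.46 FPKM in ErbB2V664E mutants, against 0.0494, 2.39 and 0 FPKM in ErbB2V664E controls. These groups overlapped, and the F2r difference did not pass the test (limma adjusted p = 0.445).

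The haemostasis and activation list, the group closest to Vwf in function, held 23 loci, of which 13 were tested. None was called in the ErbB2V664E line, the median was −0.12, and 6 of 13 lay above 0. Edn1, the vasoconstrictor endothelin-1, stood at 1.60, 1.79 and 3.10 FPKM in ErbB2V664E mutants, against 1.22, 1.04 and 1.02 FPKM in ErbB2V664E controls. Its groups did not overlap, as at the 9.28% of loci given above, but the difference of 0.57 did not pass the test (limma adjusted p = 0.409). Nos3, the endothelial nitric oxide synthase, differed by 0.06 and Plat, tissue plasminogen activator, by −0.19. Selp, the P-selectin that shares Weibel-Palade bodies with Vwf, was below 0.05 FPKM in each of the 12 libraries, and Angpt2, another cargo of these bodies, was at 0.168 to 0.7 FPKM. Neither was tested. Edn1, Selp and Angpt2 were named after their values were seen. The venous list, 8 tested, had a median of −0.16, the arterial list, 10 tested, −0.18, and the capillary list, 10 tested, −0.15.

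**Figure D3:**
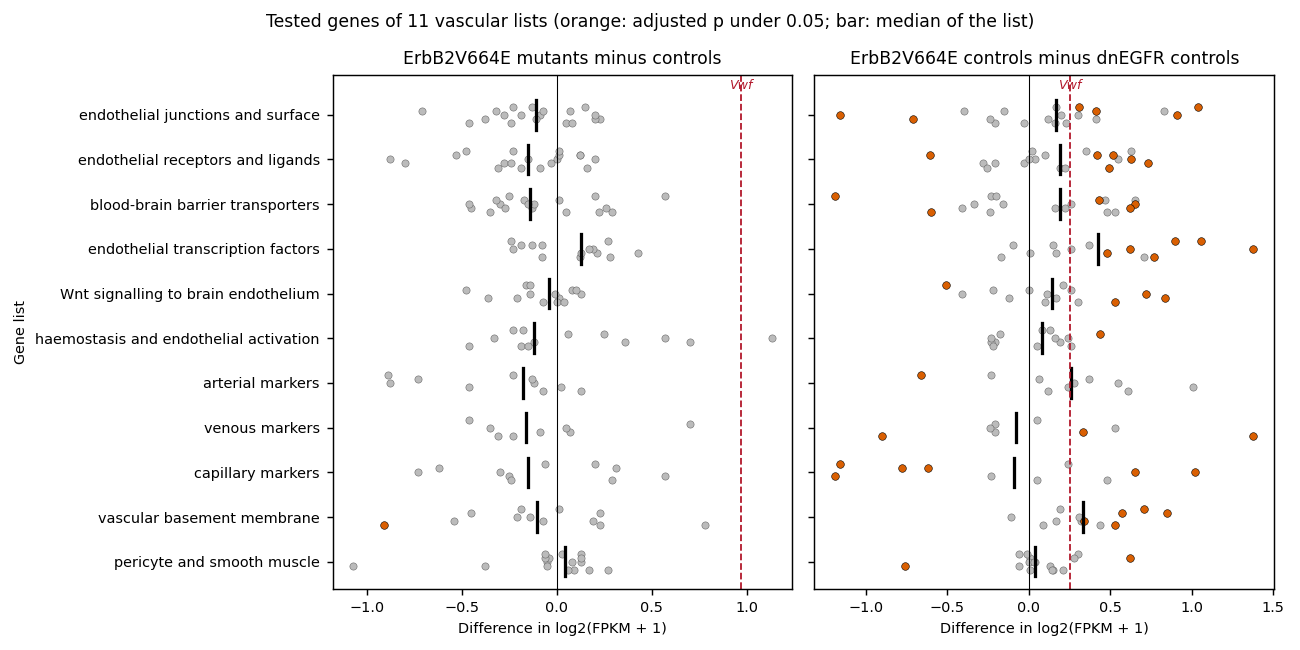
Differences in log2(FPKM + 1) of the tested genes of 11 vascular lists, 1 list per row. The left panel shows ErbB2V664E mutants minus controls and the right panel ErbB2V664E controls minus dnEGFR controls. Points are genes (orange where the limma adjusted p is under 0.05), black bars are list medians and the red dashed line is Vwf. Lamc1 is the orange point on the left, and 41 loci are called on the right, drawn once in each list that holds them.

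Between the control groups the same 142 loci held 30 that were higher and 11 that were lower in ErbB2V664E controls, 28.9% in all, where 20.0% of all loci were called. The difference had a median of 0.16. Among the 14 tested transcription factors, 6 were higher and 0 lower. Epas1, which encodes HIF-2alpha, stood at 39.9 ± 3.0 FPKM in ErbB2V664E controls and 20.8 ± 0.973 FPKM in dnEGFR controls (SD, n = 3 each, limma adjusted p = 0.000529). Eng, the TGF-beta co-receptor endoglin, stood at 8.19 ± 0.592 and 3.9 ± 0.345 FPKM in the same 2 groups (limma adjusted p = 0.000427). Slc7a5, the large amino acid transporter LAT1 of the barrier, was higher by 0.65 (limma adjusted p = 0.000675). Other barrier transporters were lower. Tfrc, the transferrin receptor, stood at 6.77 ± 1.21 FPKM in ErbB2V664E controls and 16.6 ± 1.0 FPKM in dnEGFR controls (SD, n = 3 each, limma adjusted p = 0.000427). Slco1a4, the organic anion carrier OATP1A4, was lower by a log2 difference of −0.60 (limma adjusted p = 0.0065). The genes of the vascular lists therefore differed between lines in both directions, and the cells they were read from were not tested.

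Which genes followed the log2 level of Vwf most closely over the 12 libraries depends on the 3 ErbB2V664E mutants, for which Vwf was chosen. Of 4796 candidate loci with a mean of at least 5 FPKM, the highest Pearson correlations were with Bmp1 (r = 0.96), Cyp2d22 (0.958), Rasgrf1 (0.957), Spsb3 (0.953) and Tspoap1 (0.952). None of the 5 was in the vascular lists, but the share of vascular loci among the candidates was not counted. The limit of 5 FPKM also left out the members Pecam1, Cdh5, Tek and Kdr. The absence of vascular genes from these 5 is therefore not a result about Vwf. Without those 3 libraries r was 0.67, 0.73, 0.72, −0.11 and 0.74 over the other 9. Bmp1, which encodes a procollagen C-proteinase, stood at 13.1, 17.0 and 15.8 FPKM in ErbB2V664E mutants, against 7.93, 9.24 and 10.4 FPKM in ErbB2V664E controls. Rasgrf1, a Ras exchange factor known from neurons, stood at 13.6, 19.7 and 21.8 FPKM in the mutants, against 11.7, 12.7 and 12.3 FPKM in the controls.

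Of the other members, Pecam1 had r = 0.80 with Vwf over the 12 libraries and rank 462 of 13802 loci. Cdh5 had r = 0.66, Slc2a1 0.61, Flt1 0.52 and Cldn5 0.43. Ly6c1 had r = 0.08, Kdr −0.01, Abcb1a −0.01 and Tek −0.35. Without the 3 ErbB2V664E mutants the order was different. Over the other 9 libraries r was 0.94 for Cdh5, 0.93 for Slc2a1, 0.70 for Pecam1, 0.70 for Flt1 and 0.43 for Abcb1a. It was 0.14 for Tek, 0.09 for Cldn5, 0.04 for Ly6c1 and −0.18 for Kdr. The ErbB2V664E controls lay above the dnEGFR controls in Cdh5, Slc2a1 and Vwf, so these values mix the lines.

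**Figure D4:**
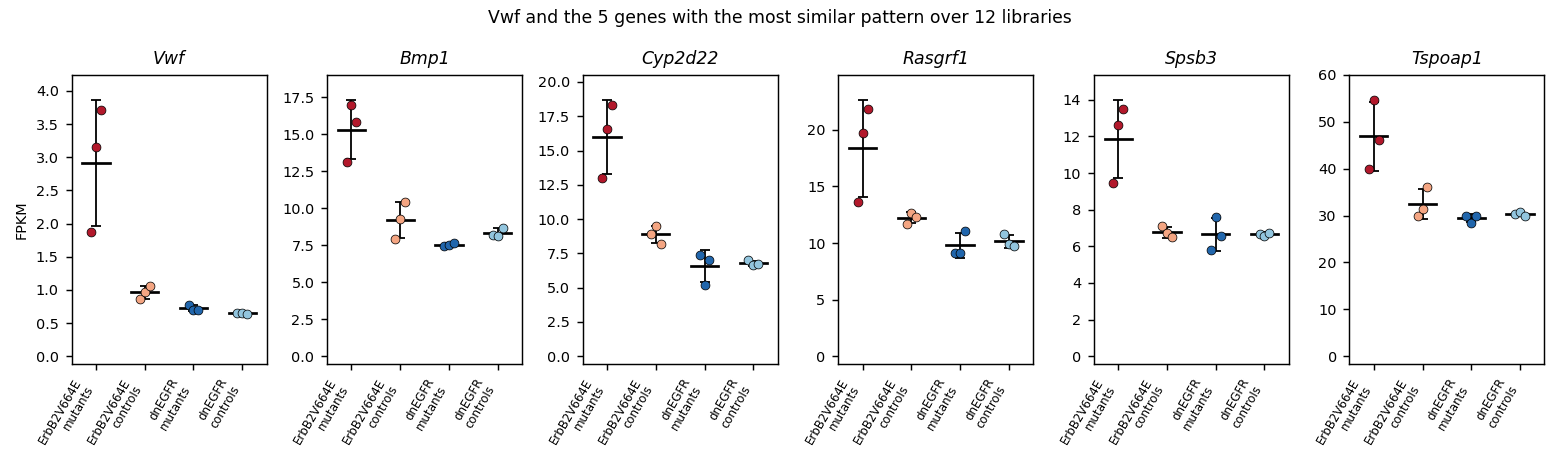
FPKM of Vwf and of the 5 genes most correlated with it among 4796 loci with a mean of at least 5 FPKM, 1 panel per gene with its own axis from 0. Points are libraries of the 4 groups, horizontal lines are means and vertical bars are SD (n = 3). In each panel the 3 ErbB2V664E mutants are the highest libraries, as the choice by correlation with Vwf favours.

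Of the marker lists of other cell types, the oligodendrocyte list held the 1 gene called in the ErbB2V664E line. The summed level of 5 red blood cell genes was 118, 32.5 and 22.1 FPKM in ErbB2V664E mutants, against 143, 95.5 and 214 FPKM in ErbB2V664E controls, with overlap at mutant 1. The 12 oligodendrocyte genes summed to 1190, 743 and 997 FPKM in the mutants, against 1720, 1220 and 1970 FPKM in the controls, without overlap. That gene, Mag, was lower, 8.33% of the list, where 0.275% of all loci were called. The 14 microglial genes summed to 120, 80.4 and 69.4 FPKM in the mutants, against 134, 118 and 153 FPKM in the controls, again with overlap at mutant 1. The 10 choroid plexus genes summed to 651, 12.6 and 98.5 FPKM in the mutants, against 258, 580 and 251 FPKM in the controls, with overlap. Most of that sum was Ttr, at 617, 9.49 and 92.4 FPKM in the mutants, against 244, 545 and 236 FPKM in the controls. In these 4 lists mutant 1 was the highest of the mutants. The same held in several vascular lists, such as receptors and ligands or pericytes and smooth muscle. In others, such as basement membrane, mutant 1 was the lowest. The astrocyte list summed to 277, 276 and 305 FPKM in the mutants, against 493, 297 and 324 FPKM in the controls. Slc1a2 alone stood at 229, 65.9 and 60.7 FPKM in these controls. The neuron list summed to 927, 1180 and 1140 FPKM in the mutants, against 941, 1080 and 1060 FPKM in the controls. The part of these differences in the Vwf result was not tested.

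Platelets and megakaryocytes, the other source of Vwf, were near the limit of the table. Of 13 platelet genes 3 were tested and 3 were listed at 0 in each of the 3 ErbB2V664E mutants. Those 3 were Ppbp, Gp6 and Tubb1, and Pf4, platelet factor 4, was at 0, 0 and 0.036 FPKM in the mutants, against 0, 0.181 and 0.203 FPKM in the controls. The summed platelet list was 54.4 to 56.6 FPKM in the mutants and 56.3 to 80.7 FPKM in the controls. Most of that sum was a locus that joins Gp1bb with Sept5, a gene known from neurons, at a mean of 52.3 FPKM in the mutants and 63.4 FPKM in the controls. The 18 pericyte and smooth muscle genes summed to 57.2 to 86.8 FPKM in the mutants and 80.0 to 81.7 FPKM in the controls, with overlap.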

How the data were processed

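Poly(A)-selected RNA of 12 white matter samples was sequenced in paired ends, per the labels' protocols, which name no step that keeps the strand. The authors deposited FPKM values in 1 table. StringTie gave them, according to the design text, and HISAT is the other tool named in the submitters' processing notes, neither with a version. Build, annotation and options: not given in the sources used here. GENCODE M21 held 99.53% of the Ensembl transcript identifiers and served as the annotation. Fragments per library were estimated from the steps of low FPKM values at loci with 1 transcript. No count test was run, since 37.4 to 40.8% of those values fell on steps or midpoints between them, within 0.01 of a fragment.

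The tests were run with limma 3.58.1 (R 4.3.3) on log2(FPKM + 1), with 4 group means over all 12 libraries, a variance trend, two-sided tests and Benjamini-Hochberg adjustment over 13803 loci with at least 1 FPKM in 3 or more libraries. A call is an adjusted p under 0.05. Fold changes on this scale understate those of low genes such as Vwf. The fit was tested on simulated data. The members and gene lists were chosen with earlier results of these data known. Named were the 10 members, list genes past the threshold or among the 3 highest of their list, and the 5 genes most correlated with Vwf. The labels pair mutants and controls in 6 litters, and deviations from group means correlated by −0.03 to 0.03 within pairs. Alternatives were pseudocount 0.1, no filter, 2 other scalings, litter as a block, no variance trend, each line alone and each library left out. Leaving out Cldn5 was added after seeing the data.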

Additional observations from a re-analysis of the deposited data

How the results depend on the processing

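The 9 members other than Vwf stayed uncalled in both mutant comparisons under every alternative run. They stayed uncalled in the difference between lines under every alternative but each line fitted alone, which does not give it. Slc2a1 and Cdh5 stayed called between the control groups. Litter as a block and each line fitted alone do not give that comparison. Of 693 member values under an alternative, 53 uncalled ones changed sign. Vwf in the ErbB2V664E line stayed between 0.82 and 1.17 when 1 library was left out and was 1.45 with a pseudocount of 0.1. That pseudocount moved its level relative to the other members to 1.14 in place of 0.78.

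The counts over all loci were less stable. With litter as a replicate block, 7 loci were called in the ErbB2V664E line in place of 38, 3 in the dnEGFR line in place of 13 and 4 for the difference in place of 16, and 0 other vascular loci in place of 1 in the ErbB2V664E line. The block changed no call of the other 9 members. Vwf was among the 38 loci, which only describes the values it was chosen by and adds no support. It was not called with the block, without the filter, with median-of-ratios size factors, with each line alone, or in 11 of 12 fits without 1 library, the exception being ErbB2V664E mutant 1. With each line fitted alone the counts were 23 and 22, with 0 other vascular loci in the ErbB2V664E line. Without the filter 25 other vascular loci were called between the control groups in place of 41. Leaving out 1 library gave 16 to 262 loci in the ErbB2V664E line and 0 to 9 other vascular loci, 9 to 36 in the dnEGFR line, 15 to 42 for the difference with 0 to 1 vascular, and 1810 to 2787 between control groups with 22 to 42 vascular. The highest ErbB2V664E counts, 262 and 9, came without ErbB2V664E mutant 1, the lowest, 16 and 0, without mutant 2. Counts there were 24, 23 and 21 without ErbB2V664E control 1, ErbB2V664E control 3 and dnEGFR control 3. In the dnEGFR line they were 36 without mutant 3, 31 without control 1, 25 without mutant 1, 24 without control 2 and 22 without control 3. The counts of 1810 and 22 came without ErbB2V664E control 3, and 27 vascular loci were called without ErbB2V664E control 1. For the difference they were 42 without ErbB2V664E mutant 1, 28 without dnEGFR mutant 3 or dnEGFR control 3, and 27 without dnEGFR control 1. The cause was not tested. Nothing separates days or dissections in the labels. The low level of Vwf, under 1.1 FPKM outside the ErbB2V664E mutants, limits the precision of its fold change.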

Other observations

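Among other vessel genes outside the comparisons above, the pericyte gene Rgs5 had the most negative difference of the vascular lists in the ErbB2V664E line, −1.07 on the log2 scale, and did not pass the test (limma adjusted p = 0.496). It stood at 36.8, 3.7 and 21 FPKM in ErbB2V664E mutants, against 31.6, 31.2 and 33.1 FPKM in ErbB2V664E controls, so that mutant 2 was far below the rest and mutant 1 above every control. Sparc, a matrix protein of vessels and glia, differed by 0.78 in the ErbB2V664E line (limma adjusted p = 0.348) and by 0.98 in the dnEGFR line (limma adjusted p = 0.684), and passed the test in neither. It stood at 36.4, 83.1 and 80.8 FPKM in ErbB2V664E mutants, against 47.1, 37.7 and 26.1 FPKM in ErbB2V664E controls, with mutant 1 within the range of the controls. In dnEGFR mutants it stood at 52.7, 47.7 and 58.6 FPKM, against 27.1, 21.7 and 30.8 FPKM in dnEGFR controls, without overlap. The joined locus of Cadm3 and Ackr1, which holds a venule marker and a neuronal adhesion gene, stood at 30.5, 35.9 and 32.9 FPKM in ErbB2V664E mutants, against 25.9, 27.4 and 11.0 FPKM in ErbB2V664E controls, and its 2 genes cannot be told apart. Tfrc stood at 8.87, 10.9 and 11.9 FPKM in ErbB2V664E mutants, against 6.35, 8.13 and 5.82 FPKM in ErbB2V664E controls, without overlap. Its difference did not pass the test (limma adjusted p = 0.134). Over all loci tested, mutants lay above controls without overlap at 9.28% in the ErbB2V664E line and 5.58% in the dnEGFR line. Rgs5 and Sparc are among the 3 highest genes of their lists, and Tfrc was called between the control groups.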
